A study of Homo sapiens with 5 samples.

Results

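The thioredoxin and peroxiredoxin genes described here are TXN, TXN2, TXNRD1, TXNRD2, TXNIP, PRDX1, PRDX2, PRDX3, PRDX6 and SRXN1, which make 10 of the 20162 protein-coding genes annotated on hg19. They were chosen by name, for the pathway they belong to, and a ChIP-seq peak was given to a gene when any of it fell inside the gene or its flanks of 50 kb. Of the 29781 peaks in the 4 lists, 101 lay at these genes. The Nrf2 lists held 14 of 3204 peaks there without iAs and 27 of 7743 with iAs, and the HIF1α lists held 24 of 6008 without iAs and 36 of 12826 with iAs.

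Chromatin came from BEAS-2B, an immortalized line from human bronchial epithelium, and every culture was starved of serum overnight. The cells were then kept for 6 h without inorganic arsenic (control) or with 1 μM of it (iAs), and immunoprecipitated with an antibody against Nrf2 or against HIF1α. Each of the 4 combinations was 1 library, and an input library without antibody was not used here, so no difference between control and iAs has a replicate check and none was tested. A peak is known only by its start and end. The lists carry no height or score, the read depth is unknown, and peak width is the only measure of size, which need not follow binding strength. Peak lists hold no expression, so the cell type could not be checked against its markers. The labels name Santa Cruz and Abcam antibodies, whereas the methods name Active Motif.

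Thioredoxins reduce disulfides in other proteins, and a thioredoxin reductase recharges them with electrons from NADPH. Peroxiredoxins use this supply to break down hydrogen peroxide, and sulfiredoxin (SRXN1) repairs peroxiredoxins whose catalytic cysteine has been over-oxidized. Nrf2 is held at a low level by Keap1, a protein whose cysteines react with arsenic and other electrophiles. Once freed, it pairs with a small MAF protein and binds antioxidant response elements, whose core reads TGACNNNGC. HIF1α, the oxygen-regulated subunit of hypoxia-inducible factor, binds with ARNT at elements built on ACGTG or GCGTG.

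The places where the Nrf2 peaks at these genes held a TGACNNNGC match are shown because they carry the sequence that Nrf2 is known to read. From the Nrf2 peaks inside a member or up to 10 kb from it, 9 matches are given, 5′ to 3′ on the strand of the match, from hg19, with the matched letters in capitals. Distances are from the TSS of the canonical transcript to the middle of the match, negative when upstream.
TXN, -577 bp, chr9:113019350-113019378, plus strand: tgctccagctTGACACAGCggtttagtgc
TXNRD1, -1498 bp, chr12:104608045-104608073, plus strand: tagagaacagTGACTGTGCacctgatgtg
TXNRD1, -95 bp, chr12:104609448-104609476, plus strand: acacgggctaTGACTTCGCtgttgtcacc
TXNRD1, -4 bp, chr12:104609539-104609567, minus strand: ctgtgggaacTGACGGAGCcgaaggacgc
TXNRD1, 3.74 kb, chr12:104613282-104613310, minus strand: ttacacatcaTGACACTGCattttctacg
TXNRD1, 65.3 kb, chr12:104674810-104674838, minus strand: atggagaggtTGACTAAGCagttggatat
TXNRD1, 71.2 kb, chr12:104680698-104680726, minus strand: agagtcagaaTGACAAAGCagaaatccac
TXNRD1, 73.3 kb, chr12:104682861-104682889, minus strand: aggcaggctgTGACCACGCtgagctcaac
PRDX1, -137 bp, chr1:45987679-45987707, plus strand: cccgccggaaTGACTCGGCgctttccctc

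A related site, TGACTCA, is the sequence that AP-1 factors read, and an element can hold both. Outside the TGACNNNGC matches it stood 7 times in these Nrf2 peaks, and 4 are shown, chosen after their positions were seen because they lay in peaks of both factors.
TXN2, 16.3 kb, chr22:36861377-36861405, plus strand: cacagccagcaTGACTCAcggccatgatc
TXNRD1, 3.98 kb, chr12:104613528-104613556, plus strand: atgtgtttataTGACTCAtatggcaaaag
TXNRD1, 4.40 kb, chr12:104613939-104613967, minus strand: cttggggcatcTGACTCAcccttatcagc
SRXN1, -269 bp, chr20:634099-634127, plus strand: cccgggcgggcTGACTCAgggtgagtttg
The TXNRD1 site at 4.40 kb lay in peaks of all 4 libraries, and that at 3.98 kb in both Nrf2 peaks and a HIF1α peak of control cells. The SRXN1 site lay in both Nrf2 peaks and the HIF1α peak with iAs, and the TXN2 site in the Nrf2 peak with iAs and the HIF1α peak of control cells.

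Nrf2 peaks were present in control cells at 4 of the 10 genes, TXN, TXNRD1, PRDX1 and SRXN1, where 20.0% of all protein-coding genes had one. With iAs they were present at 8 genes, all but TXNIP and PRDX3, against 35.0% of all genes. HIF1α peaks were present at 9 genes in control cells, all but PRDX3, and at 10 with iAs, against 45.5% and 68.6% of all genes. Within 10 kb the Nrf2 counts were 4 genes in control cells, against 10.6% of all genes, and 6 with iAs (the same 4, TXN2 and TXNRD2), against 19.6%. The HIF1α counts at that distance went the other way, from 8 genes in control cells, against 29.0% of all genes, to 7 with iAs, against 54.7%. Every share of members was above that of all genes, with 10 genes behind it and no adjustment for gene length or crowding.

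**Figure D1:**
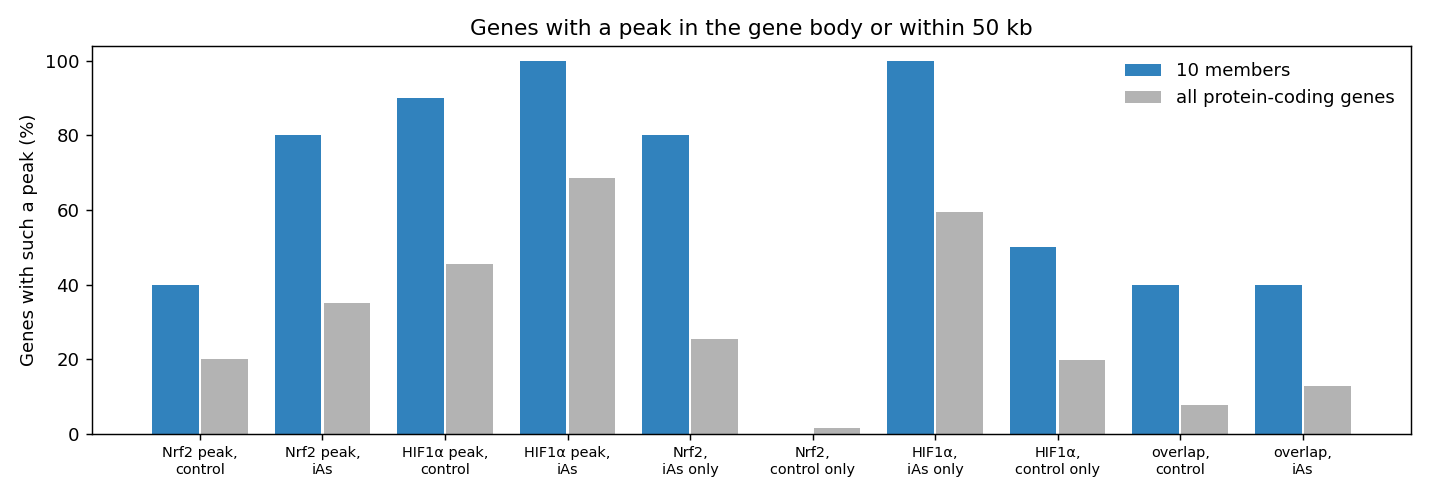
Percentage of genes with a peak inside them or up to 50 kb away (vertical axis, from 0), for each library, for peaks of only 1 condition and for overlaps between factors in 1 condition. Blue bars are the 10 members and grey bars all 20162 protein-coding genes; the blue bar is the higher in every pair but that of Nrf2 peaks seen in control cells only, which no member had.

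A peak was called iAs-only when it shared not even 1 bp with a control peak of its factor, and control-only in the opposite case. An iAs-only Nrf2 peak lay at 8 of the 10 genes (25.4% of all genes) and a control-only Nrf2 peak at none (1.55% of all genes). For HIF1α, an iAs-only peak lay at all 10 genes (59.6% of all genes) and a control-only peak at 5, TXN, TXN2, TXNRD1, TXNRD2 and TXNIP (19.9% of all genes). At these genes every Nrf2 peak of control cells thus had an overlapping peak with iAs. With a share of 1.55% over all genes, this does not set the members apart. HIF1α intervals differed in both directions. In numbers of peaks, 14 Nrf2 peaks were iAs-only and 13 were also seen in control cells, and 22 HIF1α peaks were iAs-only and 9 control-only.

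A peak centred within 1 kb of the TSS, a distance chosen after the positions were seen, was found in all 4 libraries at TXN, PRDX1 and SRXN1. These were 3 of 10 members, where 1.14% of all genes had such a set. Library by library, 3 members had an Nrf2 peak there in control cells (2.23% of all genes) and 4 with iAs, TXNRD1 being the addition (4.92%). HIF1α had a peak there at 5 members in control cells, TXN, PRDX1, PRDX2, PRDX6 and SRXN1 (16.5% of all genes), and at 6 with iAs, again with TXNRD1 as the addition (42.1%). No library had a peak within 1 kb of the canonical TSS of TXN2, TXNRD2, TXNIP or PRDX3.

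**Figure D2:**
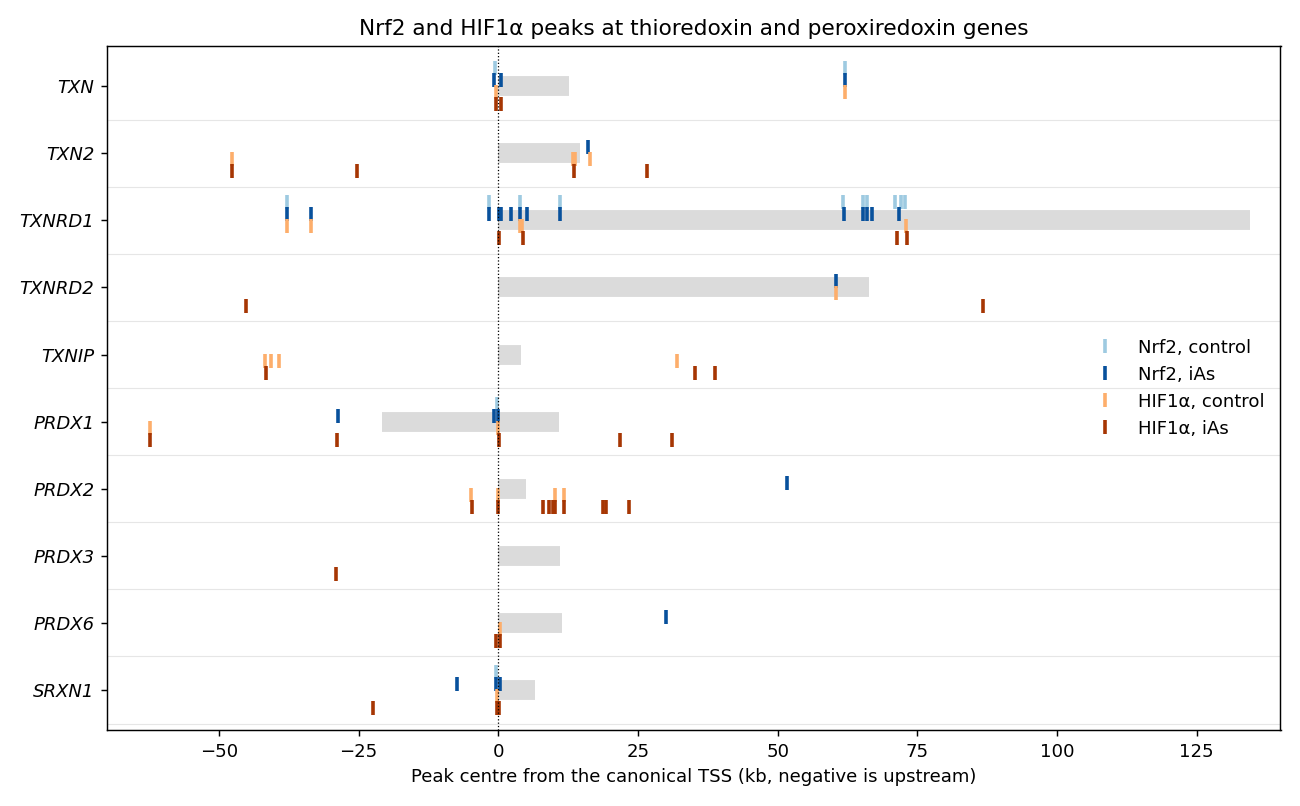
Centre of each of the 101 peaks by its distance from the canonical TSS (horizontal axis, kb, negative upstream) for the 10 genes (rows), coloured by library; grey bars are the gene bodies. TXN, PRDX1 and SRXN1 have marks of all 4 colours at 0, TXNRD1 carries most Nrf2 marks, and TXNIP and PRDX3 have none for Nrf2.

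TXN encodes the cytosolic thioredoxin and lies at chr9:113006090-113018787 on the minus strand. It had 2 Nrf2 peaks without iAs and 3 with iAs, and 2 HIF1α peaks in each condition. Just upstream of the TSS, the Nrf2 peak was 691 bp wide in control cells, centred at -0.498 kb, and 1199 bp wide with iAs, centred at -0.690 kb. These were wider than 92.4% and 95.9% of the peaks in their libraries, and both contained the match at -577 bp. HIF1α had a peak of 243 bp there without iAs and of 283 bp with iAs, each wholly inside the Nrf2 peak of its condition. With iAs a further Nrf2 peak of 1119 bp appeared over intron 1, centred at 0.565 kb, and a HIF1α peak of 853 bp lay inside it. Neither overlapped a control peak of its factor, and they were wider than 95.0% and 93.9% of their lists. A distant site, 62.0 kb downstream of the TSS inside C9orf152, had an Nrf2 peak of 350 bp without iAs and 453 bp with iAs, and a HIF1α peak of 355 bp in control cells only. It was the only position among all member peaks to hold TGACTCAGC, which joins both motifs.

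TXN2, the mitochondrial thioredoxin (chr22:36863093-36877687, minus strand), had no Nrf2 peak without iAs and 1 with iAs, and 4 HIF1α peaks in each condition. The Nrf2 peak was 528 bp wide and lay 16.1 kb from the TSS, past the end of the gene, over the TGACTCA site printed above. A control-only HIF1α peak of 250 bp overlapped it at 16.3 kb. Near the 3′ end, HIF1α had peaks of 240 bp in exon 4 and 197 bp in intron 3 in control cells, and 1 peak of 225 bp with iAs that overlapped both. The other HIF1α peaks of its window lay 0.140 kb or less from the start of a neighbour, EIF3D in both conditions and FOXRED2 with iAs, apart from a peak of 196 bp with iAs at 26.7 kb.

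TXNRD1 encodes the cytosolic thioredoxin reductase, a selenoprotein, and lies at chr12:104609557-104744085 on the plus strand with 7 annotated start sites. It had 10 Nrf2 peaks without iAs and 14 with iAs, and 5 and 4 HIF1α peaks. The 10 Nrf2 control peaks were the highest number of any of the 20162 genes, the next being 9, and 14 was second to the 15 of ADAM12. Of all genes, 2551 are longer than TXNRD1. Per 100 kb of gene and flanks TXNRD1 had 4.26 Nrf2 peaks in control cells, a density that 2 genes, itself included, reached, and 5.97 with iAs, which 18 genes reached. HIF1α had 2.13 and 1.71 peaks per 100 kb there.

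At the canonical start of TXNRD1, both factors had a peak with iAs only. An Nrf2 peak of 361 bp and a HIF1α peak of 351 bp covered the TSS and shared 274 bp. The Nrf2 peak held the matches at -95 and -4 bp. The HIF1α peak held 2 matches, that at -4 bp and another outside the Nrf2 peak. Upstream, a smaller Nrf2 peak was present in both conditions, 227 bp wide at -1.60 kb without iAs and 276 bp at -1.56 kb with iAs. It held the match at -1498 bp and also, at -1.60 kb, the letters TGACTCA.

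Intron 1 held the widest control site. The Nrf2 peak centred at 3.82 kb was 1808 bp wide in control cells, the 3rd widest of 3204, and 2016 bp with iAs, centred at 3.91 kb and 40th of 7743. It held the match at 3.74 kb. Inside it, HIF1α had peaks of 203 and 420 bp without iAs and of 203 bp with iAs, the last over the TGACTCA at 4.40 kb. With iAs 3 narrow Nrf2 peaks stood beside it, of 312 bp at 0.481 kb, 190 bp at 2.35 kb and 303 bp at 5.22 kb. A separate Nrf2 peak at 11.1 kb was 225 bp wide without iAs and 386 bp with iAs.

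A second group of Nrf2 peaks lay in intron 3, where 6 of the 7 TXNRD1 start sites are annotated, between 70.9 and 71.6 kb from the canonical one. In control cells 3 separate peaks of 1155, 222 and 765 bp stood between 71.1 and 72.8 kb, the first centred 0.033 kb before its nearest start site. With iAs a single peak of 3356 bp spanned all of them, the 4th widest of 7743. The match at 71.2 kb, 53 bp past an internal start, lay in a peak in both conditions, whereas that at 73.3 kb was reached only by the iAs peak. HIF1α had an iAs-only peak of 251 bp centred 0.106 kb past an internal start, and a further site at 73 kb, 206 bp wide without iAs and 305 bp with iAs. Further up the intron, Nrf2 peaks went from 417 to 581 bp at 61.8 kb, from 203 to 906 bp at 65.3 kb and from 213 to 362 bp at 66.0 kb. A 230 bp peak at 67.0 kb was iAs-only. Among canonical starts, that of EID3 was the nearest to each peak in this intron. Over all annotated starts, one of TXNRD1 was the nearest. The centre of the 906 bp peak was 5 bp from the match at 65.3 kb.

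Upstream of TXNRD1 the lists of both factors differed. At -37.8 kb Nrf2 had a peak of 805 bp without iAs and 919 bp with iAs, and HIF1α had one of 707 bp in control cells, wider than 99.0% of its list, and none with iAs. At -33.5 kb HIF1α had a peak of 321 bp in control cells only and Nrf2 one of 402 bp with iAs only.

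**Figure D3:**
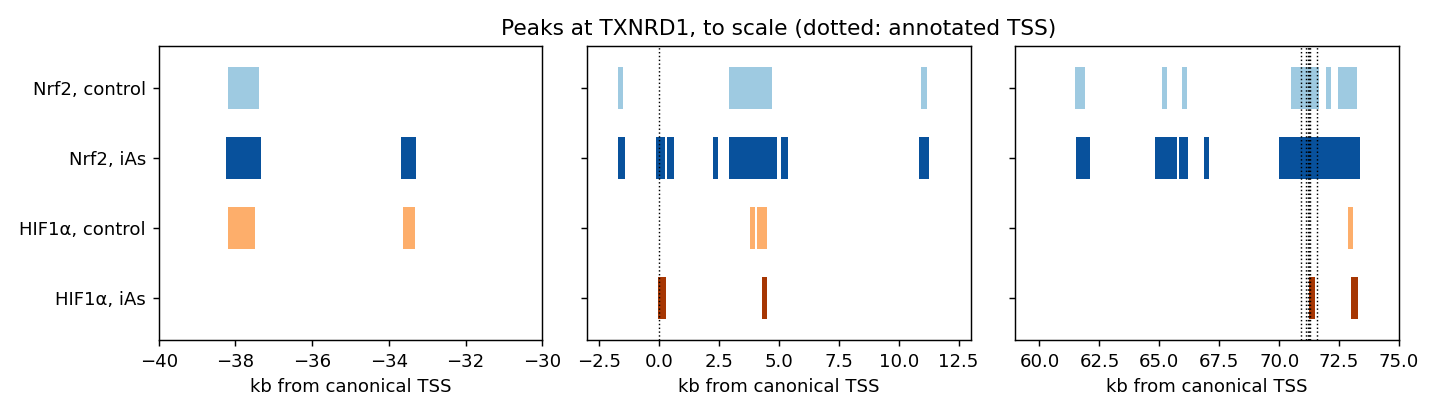
Peaks at TXNRD1 drawn to scale in 3 windows along the gene (horizontal axes, kb from the canonical TSS), with a row for each library and a dotted line at each annotated TSS. With iAs the Nrf2 row has the added peaks around 0 and the 3356 bp peak over the internal starts, and the HIF1α row loses both upstream peaks and gains 1 at each start region.

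TXNRD2, the mitochondrial reductase (chr22:19863040-19929343, minus strand), had no Nrf2 peak without iAs and 1 with iAs, and 1 and 2 HIF1α peaks. The Nrf2 peak was narrow, 200 bp, and lay in intron 12 at 60.4 kb, where an internal TXNRD2 start is annotated within 0.007 kb of its centre. A HIF1α peak of 190 bp overlapped it in control cells only, and no peak of the HIF1α control list was narrower. With iAs the HIF1α peaks stood 0.147 kb from the start of GNB1L, 885 bp wide, and inside ARVCF, 259 bp wide.

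TXNIP (chr1:145438490-145442635, plus strand) encodes an arrestin-related protein that binds thioredoxin and inhibits it. It had no Nrf2 peak in either condition, and 4 HIF1α peaks without iAs and 3 with iAs. None was within 10 kb of the gene. A HIF1α peak at -41.5 kb was present in both conditions, 332 bp wide without iAs and 459 bp with iAs. Control-only peaks lay at -40.7, -39.2 and 31.9 kb, the last 0.006 kb from the start of POLR3GL. The peaks upstream of TXNIP were nearer to the start of HJV, 14.0 to 16.4 kb away, and that at -39.2 kb lay inside HJV. The iAs-only peaks lay at 35.2 and 38.8 kb, near ANKRD34A and LIX1L.

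PRDX1, a cytosolic peroxiredoxin (chr1:45976586-46008404, minus strand), had 1 Nrf2 peak without iAs and 3 with iAs, and 2 and 5 HIF1α peaks. The peaks of all 4 libraries covered its canonical TSS. Nrf2 was 1124 bp wide in control cells, 38th of 3204, and 1230 bp with iAs, and HIF1α was 480 bp wide without iAs and 712 bp with iAs. Each HIF1α peak lay wholly inside the Nrf2 peak of its condition, and all 4 held the TGACTCGGC match at -137 bp. A narrow Nrf2 peak of 222 bp at -0.834 kb with iAs overlapped the end of the control peak by 30 bp. The 1230 bp peak with iAs overlapped the control peak by 979 bp. The stretch of the control interval between these iAs peaks lay in neither of them. At -28.6 kb Nrf2 (231 bp) and HIF1α (456 bp) had overlapping iAs-only peaks, 0.327 and 0.036 kb from the start of AKR1A1, an aldo-keto reductase. The other HIF1α peaks with iAs were 254 bp wide at 31.1 kb inside TESK2, 208 bp at the start of CCDC163, and 792 bp at NASP. The control peak at NASP was 308 bp wide.

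PRDX2 (chr19:12907634-12912614, minus strand), another cytosolic peroxiredoxin, had no Nrf2 peak without iAs and 1 with iAs, of 575 bp at 51.7 kb, where BEST2 starts 1.66 kb away. HIF1α had 4 peaks without iAs and 10 with iAs, a number that 330 genes reached. A HIF1α peak covered the PRDX2 TSS in both conditions, 344 bp wide without iAs and 718 bp with iAs. The other HIF1α peaks were all nearer to the starts of JUNB, HOOK2 or RNASEH2A than to that of PRDX2. The 3 of them present in both conditions were narrower with iAs, going from 441 to 312 bp and from 383 to 199 bp near JUNB and from 396 to 259 bp at RNASEH2A.

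PRDX3 (chr10:120927232-120938324, minus strand), a mitochondrial peroxiredoxin, had the fewest peaks of the 10 genes. Its window held none but a HIF1α peak of 193 bp with iAs, at -29.1 kb and 0.322 kb from the start of GRK5.

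PRDX6 (chr1:173446469-173457954, plus strand), a peroxiredoxin that is recharged by glutathione, had no Nrf2 peak without iAs and 1 with iAs, of 249 bp downstream of the gene, inside SLC9C2. HIF1α had a peak in intron 1 in both conditions, 475 bp wide at 0.277 kb without iAs and 496 bp at 0.319 kb with iAs. An iAs-only HIF1α peak of 223 bp lay upstream at -0.472 kb.

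SRXN1, sulfiredoxin (chr20:627259-633844, minus strand), had 1 Nrf2 peak without iAs and 3 with iAs, and 1 and 3 HIF1α peaks. Just upstream of its start, Nrf2 had a peak of 431 bp at -0.402 kb without iAs, which did not reach the TSS. With iAs the peak was 912 bp wide at -0.423 kb, wider than 91.8% of its list and reaching over the TSS. HIF1α had a peak of 200 bp at -0.140 kb without iAs and 363 bp at -0.161 kb with iAs. The TGACTCA at -269 bp lay in both Nrf2 peaks. With iAs a further pair appeared downstream of the TSS, an Nrf2 peak of 453 bp at 0.372 kb and a HIF1α peak of 228 bp at 0.212 kb, both iAs-only. The third Nrf2 peak, at -7.44 kb, was 181 bp wide, a width below which the iAs list had no peak. The third HIF1α peak lay at -22.5 kb, inside SCRT2.

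Both factors shared positions at the same 4 genes in each condition. An Nrf2 peak overlapped a HIF1α peak at TXN, TXNRD1, PRDX1 and SRXN1 in control cells (7.84% of all genes) and with iAs (12.7% of all genes). Within 10 kb of the gene these were again the 4 genes in both conditions, where 3.97% and 6.77% of all genes had an overlap. Of the 8 overlapping pairs in control cells, 6 had the HIF1α peak wholly inside the Nrf2 peak, and with iAs 7 of 10 did. At TXN and SRXN1 the iAs lists had a pair on each side of the TSS, where near the TSS the control lists had only the upstream pair.

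Some HIF1α peaks of only 1 condition lay where Nrf2 was found. Of the 9 control-only HIF1α peaks, 6 (66.7%) overlapped an Nrf2 peak of iAs-treated cells, against 41.4% of the 2782 control-only peaks of the whole list. For 3 of them the Nrf2 peak was itself iAs-only, at -33.5 kb of TXNRD1, 16.3 kb of TXN2 and 60.5 kb of TXNRD2, so that a HIF1α interval of control cells was an Nrf2 interval with iAs. That was 33.3% of the 9, against 21.9% of the whole list. Of the 22 iAs-only HIF1α peaks, 5 (22.7%) overlapped an Nrf2 peak with iAs, against 4.68% of 9651. Peaks at 1 gene share a locus, and the counts are small.

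Nrf2 sites seen in both conditions were mostly wider with iAs. Over the 15 overlapping pairs at the members, the iAs peak was the wider in 14, and the median ratio of iAs to control width was 1.70, ranging from 0.198 for the narrow PRDX1 peak to 15.1 for the 222 bp peak taken in by the 3356 bp peak of TXNRD1. A peak that overlapped several was paired with each, so the 3356 bp peak entered 3 of the pairs and the PRDX1 control peak 2. Over all 3039 Nrf2 pairs 91.9% were wider with iAs and the median ratio was 1.67, so the members were close to the whole list. For HIF1α 9 of 15 pairs were wider with iAs, the median ratio was 1.14 and the range 0.483 to 2.57, where 76.9% of all 3254 pairs were wider and the median ratio was 1.47. The peaks at the SRXN1, PRDX1 and PRDX2 starts were wider, by ratios of 1.81, 1.48 and 2.09, and those near the TXN and PRDX6 starts by 1.16 and 1.04. Peaks away from the members' starts went both ways. The peak at NASP had the largest ratio, 2.57, and those near JUNB and in intron 1 of TXNRD1 were narrower.

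**Figure D4:**
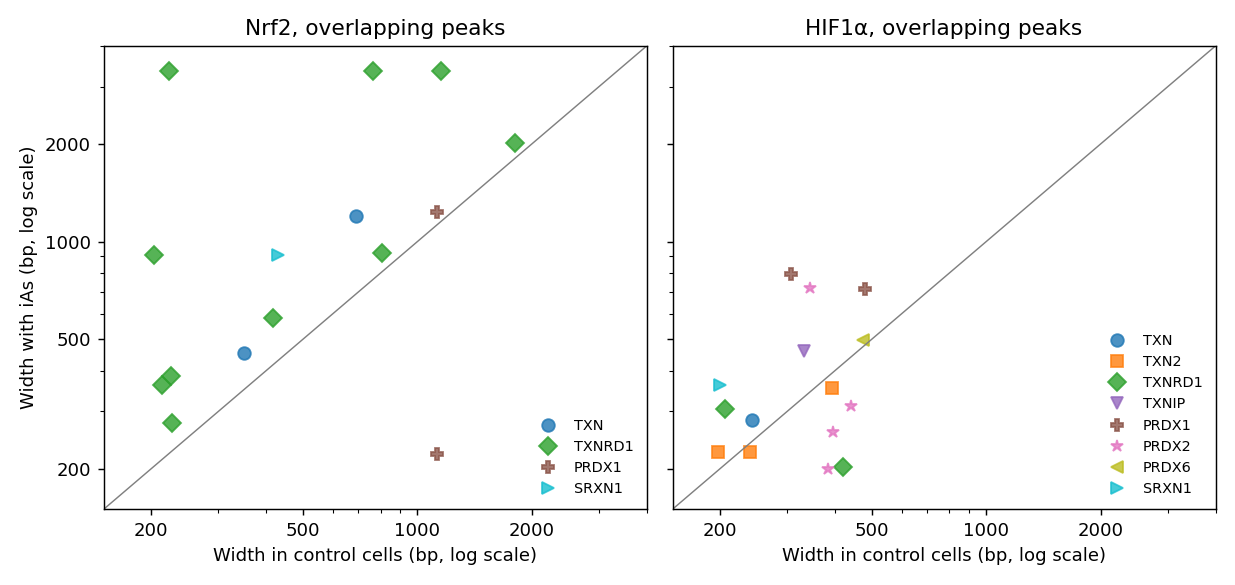
Width of overlapping peaks at the members in control cells (horizontal, bp, log scale) and with iAs (vertical, bp, log scale), for Nrf2 (left) and HIF1α (right), with a mark for each gene and a line of equal width. For Nrf2, 14 of 15 points lie above the line, and for HIF1α 9 of 15.

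Compared with their own lists, the Nrf2 peaks at the members were wider. Their median width was 424 bp without iAs and 402 bp with iAs, against 309 and 333 bp for all Nrf2 peaks. HIF1α peaks at the members had a median of 318 bp in control cells, against 276 bp for the list, and of 308 bp with iAs, against 340 bp. The share of Nrf2 peaks centred within 1 kb of any annotated TSS was also higher, and that of HIF1α peaks was lower with 1 exception. Among iAs-only Nrf2 peaks it was 42.9% at the members (6 of 14) and 14.3% over 4804, and among those also seen in control cells 38.5% (5 of 13) and 13.9%. For HIF1α it was 68.2% at the members and 77.2% over the list among iAs-only peaks. Among HIF1α control peaks also seen with iAs it was 60.0% and 80.5%. The exception was control-only HIF1α peaks, with 33.3% and 18.7%. Peaks at the members were selected for lying in or near a gene, whereas the lists hold every peak. That selection by itself favours a higher share near a TSS, and no comparison with peaks near other genes was made.

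The share of Nrf2 peaks with TGACNNNGC at the members lay near that of the lists, and the share with TGACTCA below it. TGACNNNGC, searched on both strands, was found in 8 of 14 peaks without iAs and 11 of 27 with iAs, against 51.3% and 44.2% of all Nrf2 peaks. TXNRD1 alone held 10 of these 14 peaks and 14 of these 27, so the shares rest largely on 1 locus. In the 100 bp on either side of the centre it was in 7 of each, against 42.4% and 31.6% of all such windows and 6.71% and 6.65% of windows 5 kb away. TGACTCA was in 5 of 14 and 7 of 27 Nrf2 peaks at the members, against 58.4% and 51.5% of the lists, and TGACTCAGC, a sequence that contains TGACTCA and fits TGACNNNGC, in 1 in each, against 29.0% and 21.7%. As for the HIF1α elements, in the 100 bp around the centre, ACGTG was in 3 of 24 HIF1α peaks without iAs and 8 of 36 with iAs, against 23.6% and 19.5% of all, and GCGTG in 5 and 19, against 33.1% and 41.2%. TGACTCA was in 5 of 24 HIF1α windows of control cells and 2 of 36 with iAs, against 14.5% and 2.39% of all. A match describes letters, and no match says nothing of the factor.

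Another 25 genes of thiol redox biology, taken from a list and not for their peaks, give the surroundings of the pathway. Nrf2 peaks lay at 5 of the 25 without iAs and at 8 with iAs, shares near the 20.0% and 35.0% of all genes, and HIF1α peaks at 14 and 23, against 45.5% and 68.6%. Within 10 kb, an Nrf2 peak was found at 2 of the 25 without iAs and at 6 with it, against 10.6% and 19.6% of all genes. TXNL1, a thioredoxin-like protein, had a peak in exon 1 in both conditions, 221 bp wide without iAs and 488 bp with iAs. GLRX, glutaredoxin, had a peak 48.8 kb downstream of its TSS that was 522 bp wide without iAs and 806 bp with iAs, nearer to the TSS of RHOBTB3. A 211 bp peak at 62.4 kb was iAs-only, as were all Nrf2 peaks within 10 kb of the genes that follow. GLRX2, a mitochondrial glutaredoxin, had 230 bp at -0.140 kb, overlapping a HIF1α peak of 628 bp. ARRDC4, an arrestin relative of TXNIP, had 429 bp in intron 1, and TXNRD3, a testis-enriched reductase, had 699 bp in exon 16 and 212 bp in intron 12. NXN, nucleoredoxin, had 4 narrow Nrf2 peaks of 185 to 222 bp in intron 1, and 3 of these overlapped HIF1α peaks of control cells.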

How the data were processed

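ChIP-seq of BEAS-2B cells with antibodies to Nrf2 or HIF1α gave 4 peak lists, 1 library each. Per the labels, reads were aligned to hg19 with BWA and peaks called with MACS2 2.1.0. The methods add down-sampling of tags to the smallest sample and name MACS or SICER. In the deposited lists used here the authors give base positions, with neither counts nor scores, so no read depth or precision was known and no test was made. Starts were changed from 0-based to 1-based. Their merged regions (21088) belong to no library and were not used.

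Genes were the protein-coding genes of GENCODE release 44 on GRCh37. Scripts used Python 3.11.15, NumPy 2.4.6 and Matplotlib 3.10.9, and were tested on simulated intervals. Peaks overlapped from 1 bp, and distances run from the peak centre to the canonical TSS. All 10 members are named, and a further redox gene where an Nrf2 peak lay within 10 kb. Another gene is named for some peaks that were nearer to its start or lay inside it. TGACNNNGC matches in Nrf2 peaks within 10 kb are shown, apart from 3 that are not reported here. Alternatives were distances of 10 and 2 kb, the wider 50% of peaks, the nearest start, other overlaps and motif windows. Members and lists were chosen with earlier results of these data known.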

Additional observations from a re-analysis of the deposited data

How the results depend on the processing

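Of 105 alternative values for 23 results, 75 stayed within 1.5 times the value reported and 30 did not. The numbers of members with a peak in each library were among those that stayed, but for HIF1α the order turned, from 9 without iAs and 10 with it to 8 and 7 at 10 kb, at 2 kb and with the nearest TSS over all annotated transcripts, and to 7 in each with the nearest canonical TSS. Distances shorter than 50 kb take in fewer peaks by construction. At 10 kb there were 15 HIF1α peaks without iAs and 20 with it, 6 members with an iAs-only HIF1α peak (43.5% of all genes) and 3 with a control-only one (10.5%). At 2 kb the same counts were 12, 13, 4 and 3, and 5 members had an iAs-only Nrf2 peak. Shares of all genes are not given at 2 kb or in the settings that follow, so those counts of members cannot be set against a background. Counting only peaks whose nearest canonical TSS was the member's left 7 Nrf2 peaks in control cells, 12 HIF1α peaks in each condition, 5 members with an iAs-only peak of either factor and 2 with a control-only HIF1α peak. With the nearest TSS over all annotated transcripts, chosen after seeing the data, these were 14 HIF1α peaks in each condition, 5 members iAs-only and 3 control-only for HIF1α. The wider 50% of each list held 9 and 17 Nrf2 peaks and 14 and 17 HIF1α peaks, and gave 5 members with an iAs-only Nrf2 peak. Without TXNRD1, also chosen after seeing the data, 4 Nrf2 peaks remained in control cells and 13 with iAs. A reciprocal overlap of 50% gave 2 members with a control-only Nrf2 peak and 2 where the factors overlapped in control cells. Within 100 bp of the centre, 7 Nrf2 peaks with iAs held TGACNNNGC. The ratio of summed HIF1α widths was 1.76. It sums all 36 peaks at the members with iAs over all 24 without, unpaired ones included. It thus rises with the number of peaks as well as their width, and is not a like measure to the paired median of 1.14.

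No paired analysis was possible because each group was 1 library. Neither biological nor technical spread is known, peaks just under the callers' thresholds are not listed, and width is not height. The 50 kb windows hold neighbouring genes, and a peak in them is not assigned to the member.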
